A study of Mus musculus with 6 samples.

Results

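The genes described are the keratin-associated protein genes of the mouse hair, chosen as every gene whose platform symbol starts with Krtap and measured through the single-gene probe set with the highest mean over all arrays. There were 38 such genes among 18193 genes with a probe set of their own. A further 2 probe sets carried the symbols of both Krtap3-2 and Krtap3-3 and are given apart, and 4 that mixed a Krtap symbol with other symbols name no gene and enter no count. Sorted cells of mouse back skin were hybridised to Affymetrix arrays, 6 in all. Transient-amplifying cells of the matrix (HF-TAC), the dividing cells at the base of the growing follicle, came from female CD-1 mice of postnatal days 28 to 30 and were sorted with GFP, integrin α6 and ephrinB1. Activated stem cells of the follicle (aHF-SC) came from female CD-1 mice of the same ages and were sorted on GFP, CD34 and integrin α6. Quiescent stem cells of the follicle (qHF-SC) came from female CD-1 mice of postnatal days 52 to 60 and were sorted with integrin α6 and CD34. Each group held 2 arrays, and no group was treated. The labels state neither what drove the GFP nor which side of each marker was kept, and none states whether the replicates of a group are different animals. All p-values therefore rest on array-to-array spread that could be technical. The qHF-SC mice were older and their listed markers hold no GFP, and ephrinB1 stands in HF-TAC where CD34 stands in aHF-SC, so that cell state, age and sort cannot be told apart.

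Keratin-associated proteins form the matrix between the keratin filaments of the hair shaft, which they cross-link through disulfide bonds. Their small genes lie in clusters and fall into high-sulfur, ultra-high-sulfur and high glycine-tyrosine families, and are known to be switched on in order as cells leave the follicle matrix and build the cortex and cuticle of the hair. The keratins of the shaft come on in the same cells, many of them earlier.

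The promoters of 4 genes whose levels carry the results are shown first, because the windows of the family hold some short letter strings more often than promoters at large. Each window is the RefSeq promoter of build GRCm38.p6, 250 bases before to 50 bases after the annotated start, 5′ to 3′ on the gene's strand. Capitals mark TATAAA, the letters of a TATA box, and CTTTGA, the core bound by the Wnt effectors LEF1 and TCF, on either strand.
Krtap8-1, chr16:89487903-89488202, minus strand: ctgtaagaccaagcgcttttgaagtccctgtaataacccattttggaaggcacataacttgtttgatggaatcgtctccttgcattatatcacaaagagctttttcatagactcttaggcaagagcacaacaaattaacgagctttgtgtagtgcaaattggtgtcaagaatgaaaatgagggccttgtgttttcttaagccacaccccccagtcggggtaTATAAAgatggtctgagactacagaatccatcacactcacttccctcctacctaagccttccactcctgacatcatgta
Krtap15, chr16:88828759-88829058, plus strand: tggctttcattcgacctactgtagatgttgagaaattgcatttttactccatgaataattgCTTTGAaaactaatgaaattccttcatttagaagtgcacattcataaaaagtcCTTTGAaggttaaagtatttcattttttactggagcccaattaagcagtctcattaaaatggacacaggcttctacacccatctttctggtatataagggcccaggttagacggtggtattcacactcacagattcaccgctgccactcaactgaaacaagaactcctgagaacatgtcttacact
Krtap11-1, chr16:89571134-89571433, minus strand: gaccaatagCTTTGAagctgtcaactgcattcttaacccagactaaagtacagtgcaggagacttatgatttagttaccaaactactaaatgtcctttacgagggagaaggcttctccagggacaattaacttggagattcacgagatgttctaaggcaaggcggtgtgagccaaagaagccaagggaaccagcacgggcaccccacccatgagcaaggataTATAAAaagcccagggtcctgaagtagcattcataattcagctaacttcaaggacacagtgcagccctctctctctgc
Krtap17-1, chr11:99993945-99994244, minus strand: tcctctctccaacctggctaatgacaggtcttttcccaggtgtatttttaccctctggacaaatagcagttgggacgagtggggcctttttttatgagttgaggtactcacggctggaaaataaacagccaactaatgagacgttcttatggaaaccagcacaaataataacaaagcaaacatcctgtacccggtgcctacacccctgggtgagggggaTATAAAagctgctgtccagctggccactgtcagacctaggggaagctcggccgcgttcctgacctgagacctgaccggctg
TATAAA began at position -29 from the start in Krtap8-1, -28 in Krtap11-1 and -31 in Krtap17-1. Of the 38 genes 36 had a window in the RefSeq table, the others being Krtap12-1 and Krtap7-1. TATAAA was found in 29 of these 36 windows (80.6%), against 13.6% of all 32851 promoter windows. CTTTGA was found in 10 of 36 (27.8%), against 5257 of all 32851. The letters TTTAT and TTAAT, cores of sites described for HOXC13 in hair keratin promoters, were found in 31 (86.1%) and 21 (58.3%) of the 36, against 40.0% and 27.1% of all windows. Every TATAAA holds TTTAT on the other strand, so these counts are not separate. These matches describe letters, not binding.

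Most of the family stayed at background. A group mean at or below an intensity of 22.5 was read as background, which is the 95th percentile of 39 olfactory receptor genes on the array where it was highest. By that measure 25 of the 38 genes were at background in all 3 groups, with single arrays between 4.59 and 21.6. They held every measured member of the Krtap4, Krtap6 and Krtap19 families, together with Krtap1-5, Krtap9-3, Krtap13, Krtap21-1, Krtap26-1, Krtap28-13, Krtap31-1 and 4 of the 5 measured Krtap5 genes. The Krtap4, Krtap5 and Krtap9 families encode ultra-high-sulfur proteins, and Krtap6, Krtap19 and Krtap21 high glycine-tyrosine proteins. For comparison, the filter on dim genes, run as an alternative, kept 13 of the 38 Krtap genes and 12709 of all 18193 genes. No detection calls were used, and a dim probe set does not show that its gene is silent. Means above background were seen for 12 genes in HF-TAC, 9 in aHF-SC and 5 in qHF-SC. In such sorted populations fewer cells of a type and less RNA per cell cannot be told apart.

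The matrix cells were set against the activated stem cells of the same age to ask what distinguishes the dividing progeny from the stem cells. Of the 38 genes 6 rose in HF-TAC (limma, adjusted p of at most 0.05; 8.97% of all genes rose), and 1, Krtap17-1, fell (8.57% of all genes fell). The other 31 did not pass. The share called in either direction, 18.4%, was near the 17.5% of all genes, so the number of calls is no result about the family. Both HF-TAC arrays lay above both aHF-SC arrays in 12 of the 38 genes (26.4% of all genes) and below them in 5 (27.9% of all genes; 54.3% in either direction). The median log2 difference was 0.06 over the 38 genes and -0.01 over all genes.

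Krtap8-1 and Krtap7-1, which encode high glycine-tyrosine proteins, rose in HF-TAC. Krtap8-1 had intensities of 697 and 1469 in HF-TAC, 114 and 117 in aHF-SC, and 18 and 10.7 in qHF-SC. The 3 groups did not overlap, and the HF-TAC mean was 8.76-fold above that of aHF-SC on the log2 scale of the fit (3.13 ± 0.37 SE, limma adjusted p = 0.00193). Krtap7-1 had 109 and 356 in HF-TAC, 13.3 and 19.2 in aHF-SC, and 9.43 and 9.83 in qHF-SC. It lay at background in both stem cell groups, so the size of its 12.3-fold rise over aHF-SC is uncertain (3.62 ± 0.49 SE, limma adjusted p = 0.00305). Its HF-TAC arrays stood well apart, and the log2 difference was 4.48 without HF-TAC replicate 1 and 2.77 without replicate 2. Krtap16-3, a gene of the same cluster, had 21.3 and 30.1 in HF-TAC, 10.4 and 8.33 in aHF-SC, and 6.91 and 6.91 in qHF-SC. It rose 2.72-fold over aHF-SC (1.45 ± 0.21 SE, limma adjusted p = 0.00387) but hardly left background. Its other probe set had 9.34 and 12.9 in HF-TAC, 6.74 and 6.77 in aHF-SC, and 5.11 and 6.09 in qHF-SC. Once probe sets open to cross-hybridisation were left out, Krtap16-3 rested on that one, and its log2 difference was 0.70 over aHF-SC (limma adjusted p = 0.0524) and 0.98 over qHF-SC.

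Krtap15 and Krtap11-1, of high-sulfur families, and Krtap14 rose as well. Krtap15, also listed as Pmg2 in RefSeq, had 245 and 347 in HF-TAC, 39.2 and 33.5 in aHF-SC, and 14.8 and 17.9 in qHF-SC. It rose 8.03-fold over aHF-SC (3.0 ± 0.21 SE, limma adjusted p = 0.000346), and its neighbour Krtap14 rose 1.65-fold (0.72 ± 0.18 SE, limma adjusted p = 0.037). Krtap14 had 28.8 and 37.2 in HF-TAC, 21.8 and 18.1 in aHF-SC, and 12.7 and 12.6 in qHF-SC, so that its level left background in HF-TAC alone. The Krtap14 call ended in a fit of the 4 arrays compared (limma adjusted p = 0.0679) and when replicate number entered as a block (0.0623). Leaving out either qHF-SC array gives the same fit as the 4 arrays compared, so it is no further check. The call also ended without aHF-SC replicate 1 or 2 and without HF-TAC replicate 2, fits that leave 1 array in a group. Krtap11-1 had 138 and 550 in HF-TAC, 64.8 and 39.0 in aHF-SC, and 16.2 and 17.7 in qHF-SC. Its groups did not overlap, and through a single probe set that can cross-hybridise it rose 5.48-fold over aHF-SC (2.46 ± 0.58 SE, limma adjusted p = 0.0266). That call ended in the fit of the 4 arrays compared (limma adjusted p = 0.0506), which is also the fit without either qHF-SC array. It ended as well without aHF-SC replicate 1 or 2. The log2 difference was 3.45 without HF-TAC replicate 1 and 1.46 without replicate 2. Krtap13-1 (0.80 ± 0.34 SE, limma adjusted p = 0.172) and Krtap22-2 (0.46 ± 0.22 SE, 0.227) missed the threshold.

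**Figure D1:**
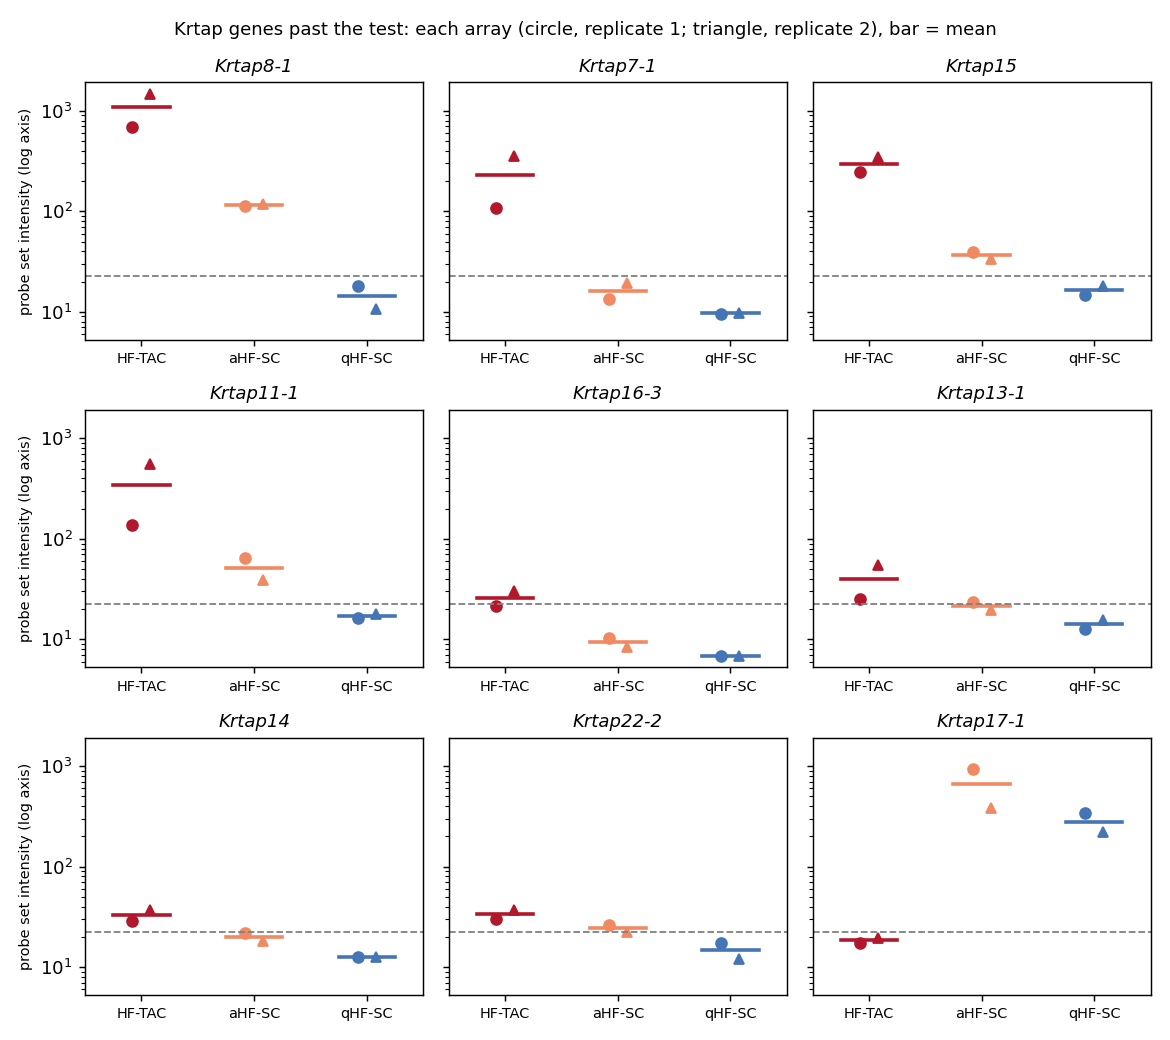
Probe set intensity (log axis) on each array for the 9 Krtap genes that passed in at least 1 comparison; circles are replicate 1, triangles replicate 2, bars group means, and the dashed line the background level of 22.5. In 8 genes the HF-TAC arrays lie above the aHF-SC arrays, and these above the qHF-SC arrays; in Krtap17-1 the HF-TAC arrays lie at background and below both stem cell groups.

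Krtap17-1 ran the other way. It belongs to an ultra-high-sulfur family in human and is the last measured Krtap gene of the chromosome 11 cluster. Its intensity was 17.3 and 19.7 in HF-TAC, 941 and 386 in aHF-SC, and 338 and 219 in qHF-SC. The HF-TAC arrays were at background and both stem cell groups far above it. It was 32.7-fold lower in HF-TAC than in aHF-SC (-5.03 ± 0.40 SE, limma adjusted p = 0.000518) and 14.8-fold lower than in qHF-SC (-3.89 ± 0.40 SE, limma adjusted p = 0.000592), sizes that are uncertain because HF-TAC was at background. Leaving out aHF-SC replicate 1 gave a log2 difference from aHF-SC of -4.39, and leaving out replicate 2 gave -5.67. Its 1 probe set is the only measure of this gene here. Each of the 8 bulge stem cell markers also fell in HF-TAC against aHF-SC (8.57% of all genes fell), with a median log2 difference of -1.95. Their summed intensities were 9918 and 7234 in HF-TAC, 36324 and 40316 in aHF-SC, and 53815 and 55848 in qHF-SC. Krt15 alone gave 8075 and 4744 in HF-TAC and 20796 and 24670 in aHF-SC, so the sums mostly follow few genes. The part of these markers in the Krtap17-1 result was not tested.

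Matrix cells were next set against quiescent stem cells, which also differ from them in age. Here 8 of the 38 genes rose in HF-TAC (13.4% of all genes rose) and Krtap17-1 fell (12.9% of all genes fell), while 29 did not pass. The share called, 23.7%, was again near that of all genes, 26.3%. Both HF-TAC arrays lay above both qHF-SC arrays in 16 of the 38 genes (30% of all genes) and below them in 2 (31.2% of all genes; 61.2% in either direction). The 8 genes that rose were at background in qHF-SC in every case, so the sizes of these folds are uncertain. Krtap8-1 was 72.8-fold higher (6.19 ± 0.37 SE, limma adjusted p = 8.32e-05), Krtap7-1 20.4-fold (4.35 ± 0.49 SE, 0.000811), Krtap15 17.9-fold (4.16 ± 0.21 SE, 5.28e-05) and Krtap11-1 16.3-fold (4.02 ± 0.58 SE, 0.00221). The other 4, Krtap16-3, Krtap13-1, Krtap14 and Krtap22-2, rose by 3.67, 2.67, 2.59 and 2.31-fold. Krtap13-1 had 25.4 and 55.1 in HF-TAC, 23.4 and 19.7 in aHF-SC, and 12.6 and 15.6 in qHF-SC. Krtap22-2 had 30.0 and 36.7 in HF-TAC, 26.0 and 22.4 in aHF-SC, and 17.3 and 11.9 in qHF-SC. Both rose past background by little, and the Krtap13-1 call (1.42 ± 0.34 SE, limma adjusted p = 0.02) ended without qHF-SC replicate 1 (0.109) or 2 (0.0637). The log2 differences of Krtap7-1 and Krtap11-1 were 5.21 and 5.02 without HF-TAC replicate 1, and 3.50 and 3.03 without replicate 2.

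Activated stem cells were compared with quiescent ones to ask what changes as the stem cells leave rest. Krtap8-1 and Krtap15 rose in aHF-SC, that is 2 of 38 genes (3.07% of all genes rose), 0 fell by limma (3.21% of all genes fell), and 36 did not pass. That share of 5.26% stood beside 6.28% of all genes, and 6 of the 38 had an unadjusted p under 0.05. Both aHF-SC arrays lay above both qHF-SC arrays in 13 genes (25.7% of all genes) and below them in 4 (25.1% of all genes; 50.8% in either direction). Krtap8-1 was 8.32-fold higher in aHF-SC (3.06 ± 0.37 SE, limma adjusted p = 0.00804) and Krtap15 was 2.23-fold higher (1.16 ± 0.21 SE, limma adjusted p = 0.0255), each at background in qHF-SC. The Krtap15 call ended without either qHF-SC array (limma adjusted p = 0.121 and 0.105) and without either aHF-SC array (0.126 and 0.0747). The Krtap8-1 call ended without qHF-SC replicate 2 (limma adjusted p = 0.0618). Krtap17-1 did not pass (1.15 ± 0.40 SE, limma adjusted p = 0.164) though its aHF-SC arrays lay above both qHF-SC arrays, and it passed without aHF-SC replicate 2 (0.0389). Krtap11-1 missed the threshold as well (1.57 ± 0.58 SE, limma adjusted p = 0.181). It passed in a fit of the 4 arrays compared (limma adjusted p = 0.0192), which is also the fit without either HF-TAC array. The comparisons share arrays and do not bear on each other independently.

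In all 8 genes that rose in HF-TAC over qHF-SC, every HF-TAC array lay above every aHF-SC array, and those above every qHF-SC array. The 8 were chosen as higher in HF-TAC than in qHF-SC on these same arrays. That part of the order therefore follows largely from the choice, and only the place of aHF-SC between them does not. Krtap7-1, Krtap13-1, Krtap14 and Krtap16-3 had means at background in both stem cell groups. Their step from qHF-SC to aHF-SC thus lay between background means. Only Krtap8-1 and Krtap15 passed by limma in aHF-SC against qHF-SC. The full order was seen in 8 of all 38 genes (21.1%), which were taken by symbol, against 8.38% of all 18193 genes. No Krtap gene outside the 8 showed it.

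**Figure D2:**
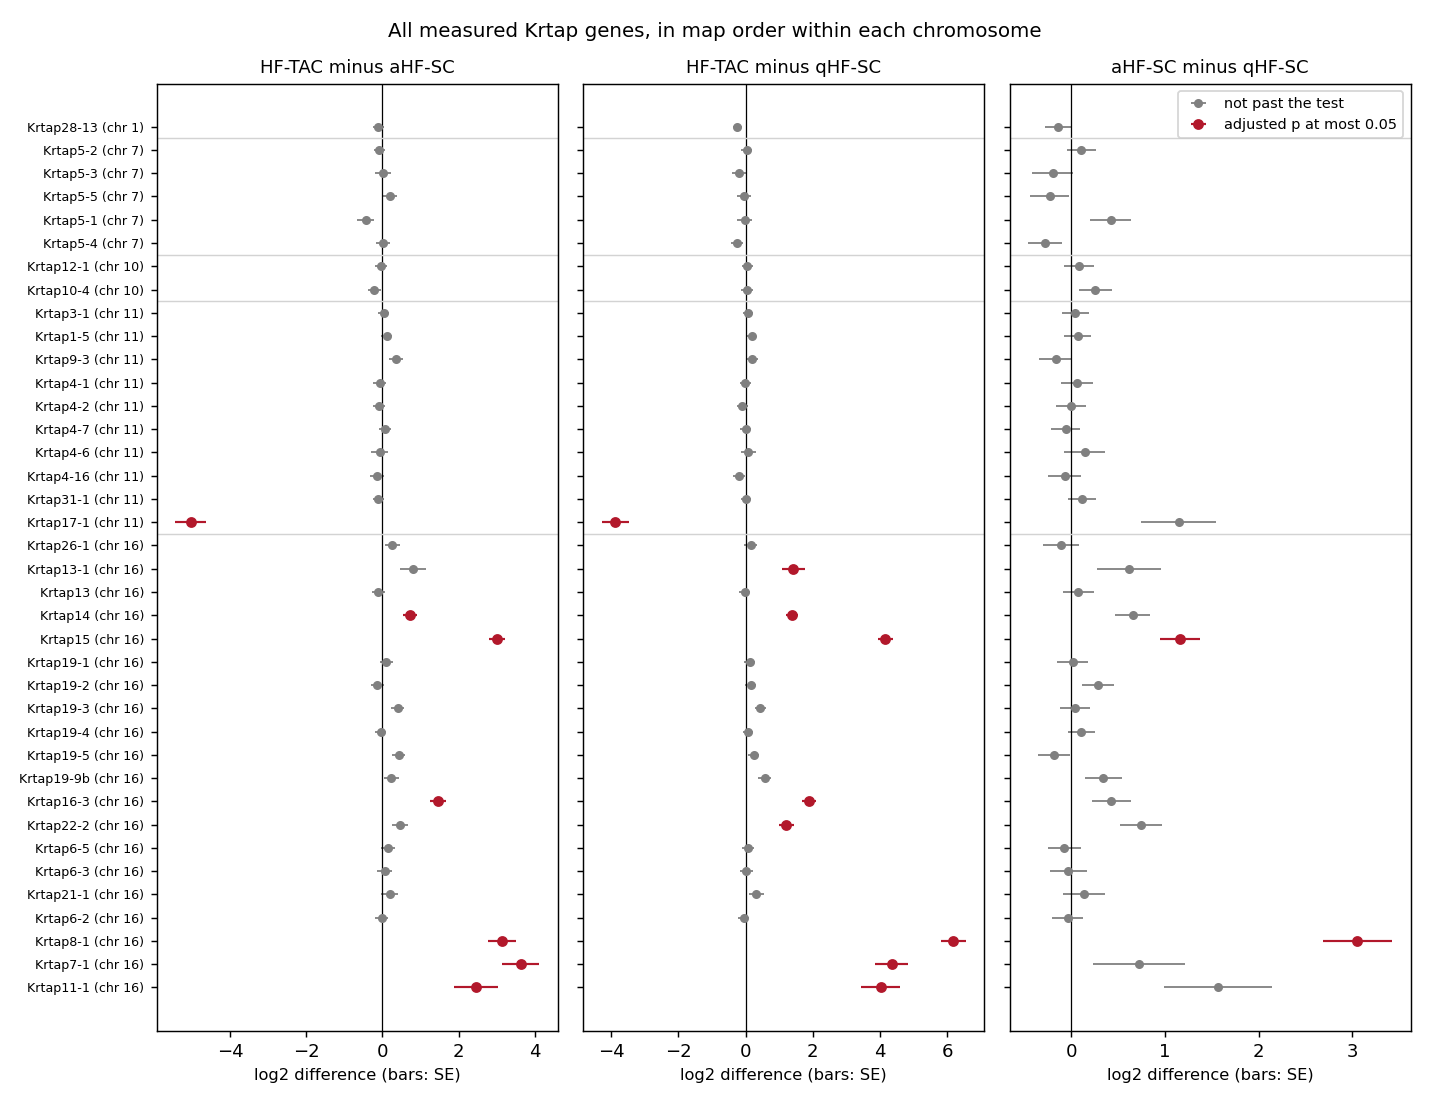
Log2 differences with their SE (bars) of all 38 Krtap genes for the 3 comparisons, from limma; genes run down the page by chromosome and, within it, in map order, and red points passed at an adjusted p of at most 0.05. The 8 genes that rose lie among the 20 on chromosome 16, while the 10 on chromosome 11 hold only the fall of Krtap17-1. Of all genes 13.4% rose and 12.9% fell in HF-TAC against qHF-SC.

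The calls are described here by gene cluster. All 8 genes that rose lie on chromosome 16, where 20 of the 38 were measured. For HF-TAC against qHF-SC this is 40% of the 20, against 13.4% of all genes that rose. The median log2 difference over those 20 was 0.38 in that comparison, against -0.01 over all genes. On chromosome 11, with 10 measured genes, the fall of Krtap17-1 was the one change called, and that median was 0.01. A share of 10% is near the 12.9% of all genes that fell, so it is no result about that cluster. Neither the 5 Krtap5 genes of chromosome 7, the pair on chromosome 10 nor the single gene on chromosome 1 held a call. Within the chromosome 16 cluster Krtap8-1, Krtap7-1 and Krtap11-1 are the last 3 measured genes in map order, Krtap14 and Krtap15 are neighbours, and so are Krtap16-3 and Krtap22-2 among the genes measured. The 6 Krtap19 genes and 3 Krtap6 genes that lie between these groups did not pass. No test was made of this arrangement.

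Promoter letters were compared between the genes that rose and those that never passed. Of the 7 risen genes with a window 4 held CTTTGA (57.1%), which were Krtap11-1, Krtap14, Krtap15 and Krtap16-3, against 6 of 28 genes without a call (21.4%). TATAAA was in 5 of the 7 and in 23 of the 28. The printed window of Krtap15 holds CTTTGA at 2 places, that of Krtap11-1 at 1, and those of Krtap8-1 and Krtap17-1 at none. TTTAT was in 6 of the 7 and 24 of the 28, which is the same share. TTAAT was in 6 of the 7 and 15 of the 28. Of all 32851 promoter windows 5257 held CTTTGA, 13.6% TATAAA, 40.0% TTTAT and 27.1% TTAAT. These are descriptions of few genes with no test.

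The 29 genes that never passed differed by -0.44 to 0.43 on the log2 scale in HF-TAC against aHF-SC, by -0.27 to 0.57 in HF-TAC against qHF-SC and by -0.28 to 0.42 in aHF-SC against qHF-SC, with SEs between 0.14 and 0.22. Nearest to the threshold was Krtap19-9b, with 20.7 and 15.8 in HF-TAC, 16 and 15.0 in aHF-SC, and 10.8 and 13.8 in qHF-SC (0.57 ± 0.20 SE for HF-TAC against qHF-SC, limma adjusted p = 0.0757). In 4 of the 29 at least 1 group mean was above background. Krtap12-1 had 71.5 and 62.8 in HF-TAC, 70.6 and 66.9 in aHF-SC, and 60.8 and 69.1 in qHF-SC, with overlapping groups. Its other probe set, which can cross-hybridise, lay at background, between 8.34 and 11.5 on all arrays, so the 2 probe sets disagree on whether the gene is above background. Krtap3-1, of a high-sulfur family, had 51.2 and 53.6 in HF-TAC, 52.7 and 49.7 in aHF-SC, and 49.1 and 50.2 in qHF-SC. Krtap3-1 stayed above background on every array without passing. Krtap10-4 had 49.2 and 54.0 in HF-TAC, 65.7 and 54.4 in aHF-SC, and 45.5 and 55.2 in qHF-SC. Krtap5-1 had 44.9 and 39.0 in HF-TAC, 70.3 and 46.0 in aHF-SC, and 43.9 and 41.1 in qHF-SC, through a probe set that can cross-hybridise. Its other probe set lay between 22.7 and 31.1 on all arrays. Many genes of this family are close copies, so probe sets can share signal and the identity of single members is uncertain.

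Of the 2 probe sets for Krtap3-2 and Krtap3-3, genes of a high-sulfur family, 1 lay between 5.03 and 6.54 on all arrays and passed no comparison. The other had 14.1 and 24.2 in HF-TAC, 7.51 and 7.90 in aHF-SC, and 10.2 and 9.66 in qHF-SC. In a fit of all 45037 non-control probe sets it rose in HF-TAC over aHF-SC (1.26 ± 0.24 SE, limma adjusted p = 0.0156; 11.5% of probe sets were called) and over qHF-SC (0.90 ± 0.24 SE, limma adjusted p = 0.0379; 20.1% called), at a group mean still at background. The call over aHF-SC ended without aHF-SC replicate 1 or 2. The call over qHF-SC ended without HF-TAC replicate 2 and without qHF-SC replicate 1 or 2. It also ended without either aHF-SC array, which is the fit of the 4 arrays compared.

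The partners of these proteins, the shaft keratins, were described from a list of 16, of which 12 were measured. In HF-TAC against aHF-SC 4 rose, against 8.97% of all genes, and 8 did not pass (median log2 difference 0.48). In aHF-SC against qHF-SC 1 rose, Krt35, against 3.07% of all genes, a call that ended without qHF-SC replicate 1 (limma adjusted p = 0.0514) or 2 (0.0671). Krt35, a keratin of the lower shaft and matrix, had 3528 and 8535 in HF-TAC, 98.6 and 201 in aHF-SC, and 12.0 and 16.2 in qHF-SC, and was 39.0-fold higher in HF-TAC than in aHF-SC (limma adjusted p = 0.000687). That log2 difference was 5.92 without HF-TAC replicate 1 and 4.65 without replicate 2. The cortex keratin gene Krt33a had 174 and 643 in HF-TAC, 51.3 and 43.3 in aHF-SC, and 15.7 and 21.6 in qHF-SC, and was 7.09-fold higher in HF-TAC than in aHF-SC (2.83 on the log2 scale, limma adjusted p = 0.0113). Krt31, also of the cortex, had 160 and 552 in HF-TAC, 61.9 and 55.7 in aHF-SC, and 29.0 and 31.4 in qHF-SC, and was 5.06-fold higher (2.34 on the log2 scale, limma adjusted p = 0.0172). The sizes turned on the HF-TAC array kept, at log2 differences of 3.77 and 3.23 without HF-TAC replicate 1 and 1.88 and 1.45 without replicate 2. The Krt33a call ended without aHF-SC replicate 2 (limma adjusted p = 0.0692), and the Krt31 call without aHF-SC replicate 1 (0.0638) or 2 (0.0916). Set against aHF-SC, 9 of 14 other shaft and cuticle genes measured were called higher in HF-TAC, against 8.97% of all genes (median log2 difference 1.15), among them Selenbp1 (13.1-fold), the cuticle calcium-binding protein gene S100a3 (4.51-fold) and the transglutaminase gene Tgm3 (4.01-fold). In aHF-SC against qHF-SC 4 of the 14 rose (3.07% of all genes) and 1, Selenbp1, fell (3.21% of all genes), with Padi3, of the enzymes that citrullinate shaft and sheath proteins, 5.86-fold and Lypd3 4.06-fold higher in aHF-SC. Padi3 was at background in qHF-SC, and the Selenbp1 fall did not pass with any 1 of the qHF-SC or aHF-SC arrays left out (limma adjusted p between 0.0702 and 0.25).

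Among 21 regulators of matrix and shaft, HF-TAC cells had 9 higher and 1 lower than aHF-SC cells, against 8.97% and 8.57% of all genes (median log2 difference 0.84). Shh was 27.0-fold, the homeobox gene Cux1 13.2-fold and Lef1, the Wnt effector whose core letters were searched above, 12.7-fold higher in HF-TAC. None of the 21 passed in aHF-SC against qHF-SC by limma, and 1 had an unadjusted p under 0.05. Foxn1 and Hoxc13, factors known to act on hair keratin genes, are named here after their values were seen. Foxn1 had 46.7 and 125 in HF-TAC, 14.7 and 21.9 in aHF-SC, and 11 and 16.3 in qHF-SC, and passed in HF-TAC against aHF-SC (2.09 on the log2 scale, limma adjusted p = 0.019). Both stem cell groups were at background, so the size is uncertain, and it was 2.80 without HF-TAC replicate 1 and 1.38 without replicate 2. That call ended without aHF-SC replicate 1 (limma adjusted p = 0.0979) or 2 (0.0534). Hoxc13 had 423 and 905 in HF-TAC, 406 and 486 in aHF-SC, and 334 and 254 in qHF-SC, and passed in no comparison (limma adjusted p = 0.453 for HF-TAC against aHF-SC, 0.0559 for HF-TAC against qHF-SC and 0.396 for aHF-SC against qHF-SC).

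The labelled cell types were checked against marker lists, whose counts stand beside 8.97% of all genes higher and 8.57% lower in HF-TAC against aHF-SC, and 3.07% higher and 3.21% lower in aHF-SC against qHF-SC. All 7 dividing cell markers rose in HF-TAC relative to aHF-SC, and 6 rose in aHF-SC relative to qHF-SC. Inner root sheath markers, genes of the sheath that forms beside the shaft, rose in 7 of 9 in HF-TAC against aHF-SC (median log2 difference 2.37), among them Krt28 (27.5-fold), Krt25 (23.7-fold) and Krt73 (9.88-fold), and in 3 of 9 in aHF-SC against qHF-SC. The log2 difference of Krt73 was 4.10 without HF-TAC replicate 1 and 2.51 without replicate 2, and that of Krt25 3.92 without aHF-SC replicate 1 and 5.22 without replicate 2. The summed intensity of the 9 markers was 6105 and 12267 in HF-TAC, 890 and 1215 in aHF-SC, and 685 and 535 in qHF-SC. Gata3, which passed in no comparison, alone gave 427 and 343 in qHF-SC and 381 and 423 in aHF-SC. Krt25 alone gave 2615 and 5249 in HF-TAC, so the sums mostly follow few genes. Of 7 differentiated keratinocyte markers 4 were called higher in HF-TAC than in aHF-SC, while 3 fell in aHF-SC relative to qHF-SC. Their summed intensity was 33062 and 21399 in HF-TAC, 12616 and 14980 in aHF-SC, and 26670 and 26421 in qHF-SC. Of the fibroblast markers 1 of 6 rose in HF-TAC against aHF-SC, the matrix proteoglycan gene Dcn. Dcn had 3646 and 5927 in HF-TAC, 53.2 and 86.8 in aHF-SC, and 28.8 and 16.6 in qHF-SC. The list as a whole did not follow Dcn, since the median log2 difference of the 6 was -0.29, with 3 positive. In all groups 2 of the 6 were at background. Of the 5 dermal papilla markers 1 rose, the Wnt inhibitor gene Wif1. The sums of the 5 were 401 and 449 in HF-TAC, 147 and 119 in aHF-SC, and 186 and 146 in qHF-SC. Most of the HF-TAC sums was Wif1, at 335 and 374. The median log2 difference of the 5 against aHF-SC was -0.10, with 2 positive, and 2 were at background in all groups. Of 6 melanocyte markers 1, Mitf, fell in HF-TAC against aHF-SC. The log2 differences of the 6 were positive in 5, none of which passed by limma (median 0.60), and 3 of the 6 had an unadjusted p under 0.05. In the same comparison 0 of 5 immune and 0 of 3 endothelial markers passed by limma, with 1 each at an unadjusted p under 0.05. Set against qHF-SC, 3 of the 6 melanocyte markers rose in HF-TAC by limma (13.4% of all genes rose). These were Dct, Tyr and Mlana, with Tyr at background in all groups. Mitf fell there, as did 1 of 3 endothelial markers (12.9% of all genes fell), and 0 of 5 immune markers passed. The part of these cells in the Krtap results was not tested.

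The HF-TAC arrays differed from each other in the same direction for the whole group of risen Krtap genes. Replicate 2 was above replicate 1 for 8 of 8, by 1.23-fold to 3.99-fold, against 53.3% of all genes, and 2.5% of all genes differed by more than 2-fold in either direction. The 8 were chosen as high in HF-TAC on these same arrays and all genes were not, so the 2 shares are not like for like. Replicate 2 was also higher for 8 of 9 inner root sheath markers, 10 of 12 shaft keratins, 20 of 21 regulators and 7 of 7 dividing cell markers. It was higher as well for 6 of 6 fibroblast markers (median log2 difference 0.72), 5 of 6 melanocyte markers (0.65) and 6 of 8 bulge stem cell markers (0.19). Replicate 2 was lower for 7 of 7 differentiated keratinocyte markers, and higher for 0 of 5 immune markers. In aHF-SC replicate 2 was above replicate 1 for only 2 of the 8 Krtap genes and 3 of 12 shaft keratins, though for 7 of 9 inner root sheath markers and 0 of 7 dividing cell markers. The part of these differences in the Krtap results was not tested.

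**Figure D3:**
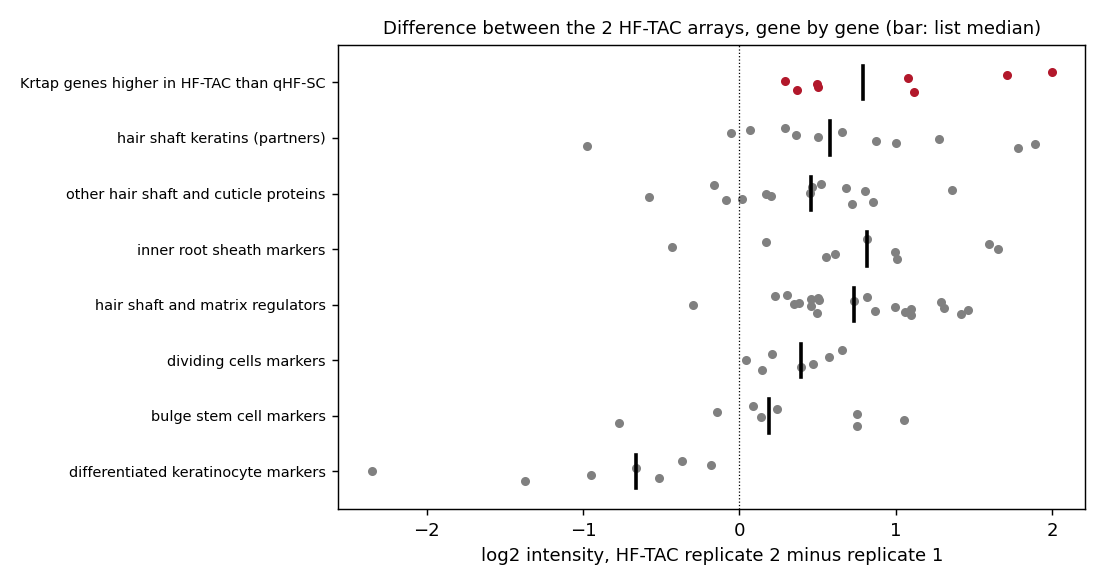
Log2 intensity of HF-TAC replicate 2 minus replicate 1 for each gene of 8 groups of genes (points) with the group's median (bar). All 8 risen Krtap genes (red) lie above 0, with a median of 0.79, while all 7 differentiated keratinocyte markers lie below 0, with a median of -0.66.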

How the data were processed

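Total RNA of sorted cells was extracted with Trizol and biotin-labelled for 6 Affymetrix arrays, per the labels' protocols. The authors deposited probe set intensities on a linear scale, and the submitters' processing notes name RMA without version or role; RMA usually compresses large folds and dim signals. The chip definition is not given in the sources used here. Median intensities per array lay between 22.8 and 24.0. Array number limits the precision, with 2 arrays a group.

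Of 45101 probe sets 64 controls were left out; 34945 had 1 symbol, 932 several and 9160 none. Symbols came from the platform annotation, and 38 of 38 Krtap genes were found in RefSeq by Entrez identifier. All 18193 genes were fitted on log2 intensity in 1 model of 3 group means (limma 3.58.1, R 4.3.3; 3 residual and 4.25 prior degrees of freedom), two-sided, with Benjamini-Hochberg adjustment over all genes within a comparison and a threshold of 0.05. Means and SDs are per group, and SEs are from the fit; the script was tested on simulated data. The naming rule gave values per array for the 8 largest called differences in HF-TAC against qHF-SC, the 4 largest in each other comparison and the several-symbol probe sets, and up to 3 and 2 genes per list in HF-TAC against aHF-SC and aHF-SC against qHF-SC. Krtap22-2, the 4 genes above background without a call and Krtap19-9b were added after their values were seen. Promoters are those of the 3 largest differences, with Krtap11-1 in place of Krtap7-1, which has no window, and Krtap17-1 added. The lists covered shaft keratins, regulators, other shaft and cuticle proteins and 9 sets of cell type markers. Members and lists were chosen with earlier results of these data known. Protein sequences were not used here, so protein families are background knowledge. Alternatives changed normalisation, probe set choice, the filter on dim genes, the log offset, the replicate block, the arrays fitted, array weights, the variance prior and each array left out in turn. Leaving out arrays for the named list genes was added after seeing the data.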

Additional observations from a re-analysis of the deposited data

How the results depend on the processing

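Krtap calls for HF-TAC against aHF-SC numbered 7 and lay between 5 and 8 with each array left out in turn; for HF-TAC against qHF-SC they numbered 9 and lay between 8 and 9. For aHF-SC against qHF-SC they numbered 2 and lay between 0 and 3 (1 without qHF-SC replicate 1, 0 without qHF-SC replicate 2, 1 without aHF-SC replicate 1), and 0 with an offset of 16 before the log. Calls of the several-symbol probe sets, 2 over the 3 comparisons, numbered 0 with that offset and 1 in the fit of the 4 arrays compared, and lay between 0 and 2 with each array left out. No call turned its direction among the 9 genes called in any comparison, under the alternatives run. Why calls were lost with the offset was not tested beyond its own construction, which shrinks differences of dim genes. With the replicate number as a block the counts were 6, 9 and 2 in the order above; same-numbered arrays deviated together only weakly (r = 0.08, -0.13 and 0.06 across genes), so the numbers were not taken as pairs, and with the qHF-SC numbers crossed, chosen after seeing the data, 10 genes were called for HF-TAC against qHF-SC. With the offset of 16, Krtap14 (limma adjusted p = 0.063) and Krtap11-1 (0.0874) lost their calls for HF-TAC against aHF-SC. Krtap13-1 (0.0794) lost its call for HF-TAC against qHF-SC. Krtap15 (0.11) and Krtap8-1 (0.0547) lost only those for aHF-SC against qHF-SC. In the fit of the 4 arrays compared, Krtap14 (0.0679) and Krtap11-1 (0.0506) lost theirs for HF-TAC against aHF-SC. Krtap13-1 passed for HF-TAC against aHF-SC without HF-TAC replicate 1 (0.0104). Krtap11-1 could not be fitted with cross-hybridising probe sets left out, since it has no other. Low signal over background limits the 25 genes at background in all groups, where a difference may go unseen.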
